A study of Saccharomyces cerevisiae with 4 samples.

Results

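Large ribosomal subunit assembly factors are proteins that bind the immature large (60S) ribosomal subunit, fold and trim its RNA, carry it out of the nucleus and leave before translation begins. The 52 yeast genes described here were chosen by systematic name, as known factors of pre-60S assembly, remodelling and export, and all 52 were found among the 6600 coding sequences of the count table. The rule names the genes and uses no measured value, although it was written with earlier results of these data known. The measurements are ribosome profiling counts, in which short mRNA fragments covered by ribosomes are sequenced and assigned to coding sequences. Ribosome profiling was done on strains of Saccharomyces cerevisiae in the 74D-694 background, 2 libraries from a mutant and 2 from the wild type (WT).

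In the mutant, the OAZ1 gene, which encodes ornithine decarboxylase antizyme and normally needs a ribosomal frameshift to be read in full, was exchanged for a form whose reading frame runs through without a shift. The WT strain carries the normal, frameshifted OAZ1. Both strains were grown in synthetic medium to mid-exponential phase, and both received cycloheximide, which stalls elongating ribosomes, at 50 µg/mL. The labels do not say whether the mutant is 1 clone or whether each replicate was its own culture. The spread against which p-values are set may therefore be only technical.

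As background, the large subunit starts as a nucleolar particle on the long ribosomal RNA precursor. A group called A3 factors, which includes the Nop7-Erb1-Ytm1 complex, binds near the internal spacer and the proteins around it. DEAD-box helicases and GTPases (enzymes that unwind RNA and that switch states with GTP) drive rearrangements, the very large ATPase Rea1 pulls off Ytm1 and later Rsa4, placeholder proteins hold sites for ribosomal proteins, and Nmd3 with Arx1 takes part in nuclear export. Genes of ribosome assembly in yeast are known to be regulated together, and many carry 2 promoter elements named PAC and RRPE.

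The promoters of the 52 genes were read from the RefSeq sequence of build R64, in a window from 250 bases before to 50 bases after the coding start. The PAC core, searched as GATGAG on both strands, was in 48 of 52 windows (92.3%), against 19.9% of 5897 windows of all genes. The RRPE core, searched as AAATTTT on both strands, was in 50 of 52 windows (96.2%), against 23.5% of all. Both cores were in 46 of 52 windows (88.5%), against 7.87% of all, and every member held at least 1 of them. The longer forms GCGATGAG and GAAAATTTT were in 57.7% and 53.8% of the members' windows, against 4.00% and 4.73% of all windows. Both longer forms occurred together in 15 members, of which 6 are printed because they include the 3 scaffold genes NOP7, ERB1 and YTM1, a GTPase, the export adaptor and a 5S particle factor. Each stretch is written 5′ to 3′ on the coding strand of its gene, and the capitals mark the longer PAC form (GCGATGAG or its reverse complement CTCATCGC) and the longer RRPE form (GAAAATTTT or AAAATTTTC).
NOP7, chrVII:695265-695303, plus strand: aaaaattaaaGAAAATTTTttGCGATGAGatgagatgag
ERB1, chrXIII:370595-370646, minus strand: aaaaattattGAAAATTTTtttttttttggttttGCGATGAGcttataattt
YTM1, chrXV:832645-832693, plus strand: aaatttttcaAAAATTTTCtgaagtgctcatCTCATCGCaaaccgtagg
NOG1, chrXVI:370825-370866, plus strand: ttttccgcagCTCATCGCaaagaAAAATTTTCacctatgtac
NMD3, chrVIII:443658-443700, plus strand: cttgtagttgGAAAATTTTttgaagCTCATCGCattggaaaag
RPF2, chrXI:592645-592691, minus strand: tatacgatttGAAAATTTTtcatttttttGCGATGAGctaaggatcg

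In NOP7 the longer PAC form began 131 bases before the coding start and the longer RRPE form 142 bases before it, and in ERB1 the distances were 95 and 119 bases. NOG1 had them in the other order, with PAC at 143 and RRPE at 130 bases. Over the members, upstream PAC cores lay at a median of 120 bases before the start (middle 50% between 101 and 143 bases) and RRPE cores at a median of 140.5 bases. The medians over all genes were close to these, at 121 bases for PAC (middle 50% between 76 and 179 bases) and 137 bases for RRPE. Of the members' upstream PAC cores, 82.5% lay between 150 and 50 bases before the start, against 50.4% of those of all genes. For RRPE cores the shares were nearer to each other, at 59.2% for the members and 48.4% for all genes. A run AAAATTTT holds the RRPE core on both strands and enters the RRPE medians and shares once for each strand, so these are not over separate sites. Among the 45 members with both cores upstream, the PAC core nearest to the start was closer than the nearest RRPE core in 39. This order was not counted over all genes. The 4 windows without a PAC core were those of SPB1, NSA1, IPI1 and RIX1, and the 2 without an RRPE core were those of MAK5 and RRP1. In IPI3 the only PAC core began 3 bases after the coding start, so it was within the window but not upstream. A match is only a run of letters and says nothing about which factor binds there.

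The motifs were not particular to these 52 genes. Of 49 genes of the small subunit processome, the complex that starts the small ribosomal subunit, 89.8% had the PAC core and 95.9% the RRPE core. Among 40 further large subunit assembly genes, 82.5% had the PAC core. Genes of 81 large subunit ribosomal proteins held it in 9.88% of their windows and the RRPE core in 30.9%, so both shares were lower in the proteins that stay in the ribosome than in the factors that leave it.

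**Figure D1:**
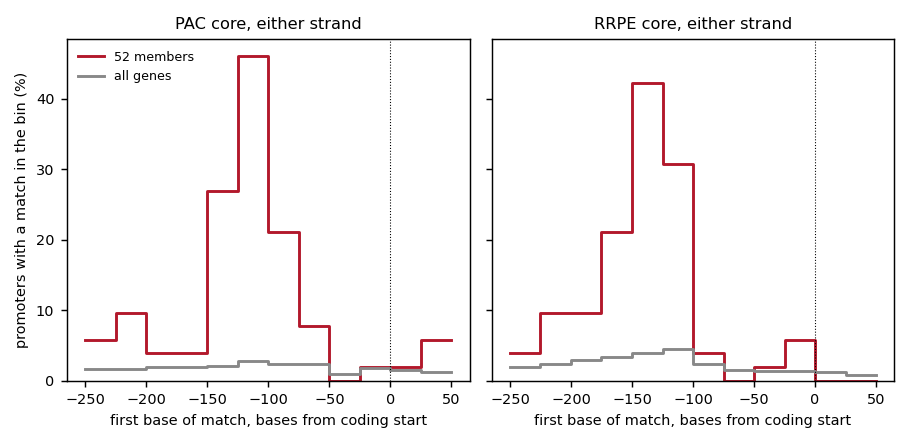
Percent of promoter windows with a PAC core (left) or an RRPE core (right) on either strand in each bin of 25 bases, against the distance of the match from the coding start in bases, for the 52 members (red) and all genes (grey). The members peak at 46.2% between 125 and 100 bases before the start for PAC and at 42.3% between 150 and 125 bases before it for RRPE, while all genes stay below 5% in each bin.

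Total counts were 7571371 and 2826895 in mutant replicates 1 and 2, and 29671498 and 10202557 in WT replicates 1 and 2. The 52 genes took 0.623% and 0.612% of the counts in the mutant libraries and 0.631% and 0.528% in the WT libraries. OAZ1 had 160 and 49 counts in the mutant and 379 and 110 in WT, or 20.5 and 18.1 CPM against 12.7 and 10.7 CPM (counts put on 1 library size with edgeR's TMM factors). Its log2 fold change was 0.73 (SE 0.22), which did not pass edgeR's quasi-likelihood test (adjusted p = 0.755), so these counts do not by themselves check the strain labels. WT replicate 1 stood apart: genes whose proteins carry a hydrophobic segment took 20.7% of its counts, against 16.6% to 17.2% in the other 3 libraries, and the SD over genes of the log2 difference was 0.297 between the 2 mutant libraries and 0.509 between the 2 WT libraries. Results that rest on WT replicate 1 are therefore also given without it. Values are shares of a library, no RNA-seq was analysed here, and in such bulk samples fewer cells with an mRNA, less RNA per cell and fewer ribosomes per mRNA cannot be told apart.

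Levels were compared between genes as CPM per kilobase of coding length. The 52 genes spanned an 18.5-fold range of mean level over the 4 libraries, with a median of 72.4, and 47 of 52 lay above the median of all genes tested, 28.7 CPM per kilobase. Each single gene had between 65 and 12869 counts in a library. The order was nearly the same in each library, with Spearman's rho between 0.961 and 0.982 over the 52 genes for any pair of libraries, although 50 of 51 neighbouring pairs in that order had overlapping ranges and do not differ beyond their spread. The exception was EBP2, whose lowest library stood above the highest of NSA2.

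The 4 highest mean levels belonged to RLP24, TIF6, RLP7 and MRT4. RLP24 (YLR009W), the placeholder for ribosomal protein L24, had 289 and 355 CPM per kilobase in the mutant and 311 and 263 in WT. TIF6 (YPR016C), which keeps the subunits from joining early, had 313 and 339 in the mutant and 275 and 271 in WT. MRT4 (YKL009W), the placeholder for the stalk protein P0, had 243 and 235 in the mutant and 209 and 198 in WT. For TIF6 and MRT4 both mutant libraries lay above both WT libraries, while for RLP24 the groups overlapped. RLP7 (YNL002C), an A3 factor related to ribosomal protein L7, averaged 244 over the 4 libraries. It reached 338 in mutant replicate 2 and lay between 203 and 228 in the other 3 libraries. The export factors stood lower in the order: NMD3 (YHR170W) averaged 90.9 and ARX1 (YDR101C) 62.5 CPM per kilobase over the 4 libraries.

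The 7 A3 factors other than RLP7 formed a narrow band. Their means ran from 74.1 in ERB1 (YMR049C) to 103 in NOP15 (YNL110C), which binds the second internal spacer of the precursor. RRP1 (YDR087C), CIC1 (YHR052W) and YTM1 (YOR272W) stood within 1 CPM per kilobase of ERB1, with NOP7 (YGR103W) at 80.2 and NOP12 (YOL041C) at 92.3. The 4 GTPases were spread over 54.0 in LSG1 (YGL099W), which acts in the cytoplasm on late particles, 69.5 in NOG2 (YNR053C), 91.7 in NUG1 (YER006W) and 119.9 in NOG1 (YPL093W), which joins particles already in the nucleolus. The NOC proteins, which form dimers on early particles, lay at 70.1 for NOC2 (YOR206W), 60.5 for MAK21 (YDR060W, also called NOC1) and 54.2 for NOC3 (YLR002C).

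The 7 helicases were split by level. DBP3 (YGL078C) averaged 103 and HAS1 (YMR290C) 90.6 CPM per kilobase, while DRS1 (YLL008W), DBP9 (YLR276C), MAK5 (YBR142W), DBP10 (YDL031W) and SPB4 (YFL002C) lay between 48.8 and 32.7. The 2 methyltransferases, which modify 25S rRNA, averaged 106 for NOP2 (YNL061W) and 70.8 for SPB1 (YCL054W). Among the 6 other RNA-binding factors the range was 57.3 in LOC1 (YFR001W) to 160.2 in NSA2 (YER126C), with the Pumilio protein PUF6 (YDR496C) at 63.97 and NOP4 (YPL043W), which has RNA recognition motifs, at 73.9. The 11 Brix-domain proteins and their partners, RNA-binding factors that act in pairs or small complexes, had 23.2 in SSF2 (YDR312W) and 200.1 in EBP2 (YKL172W) at the ends. The SSF1 partners RRP14 (YKL082C) and RRP15 (YPR143W) averaged 65.8 and 46.7. The lowest group was the machinery around Rix1 and Rea1, with a median of 23.7. RIX1 (YHR197W) averaged 16.4 and its complex partners IPI1 (YHR085W) and IPI3 (YNL182C) 21.3 and 26.0. The ATPase REA1 (YLR106C, also called MDN1) averaged 17.9, its substrate RSA4 (YCR072C) 35.3 and the export factor SDA1 (YGR245C) 34.8. Its members stood below the medians of the other 8 role groups, which lay between 39.1 for the helicases and 222 for the placeholders and export factors. REA1 is the longest protein of the set with 4910 residues, and its counts per library were among the highest while its level per kilobase was among the lowest.

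**Figure D2:**
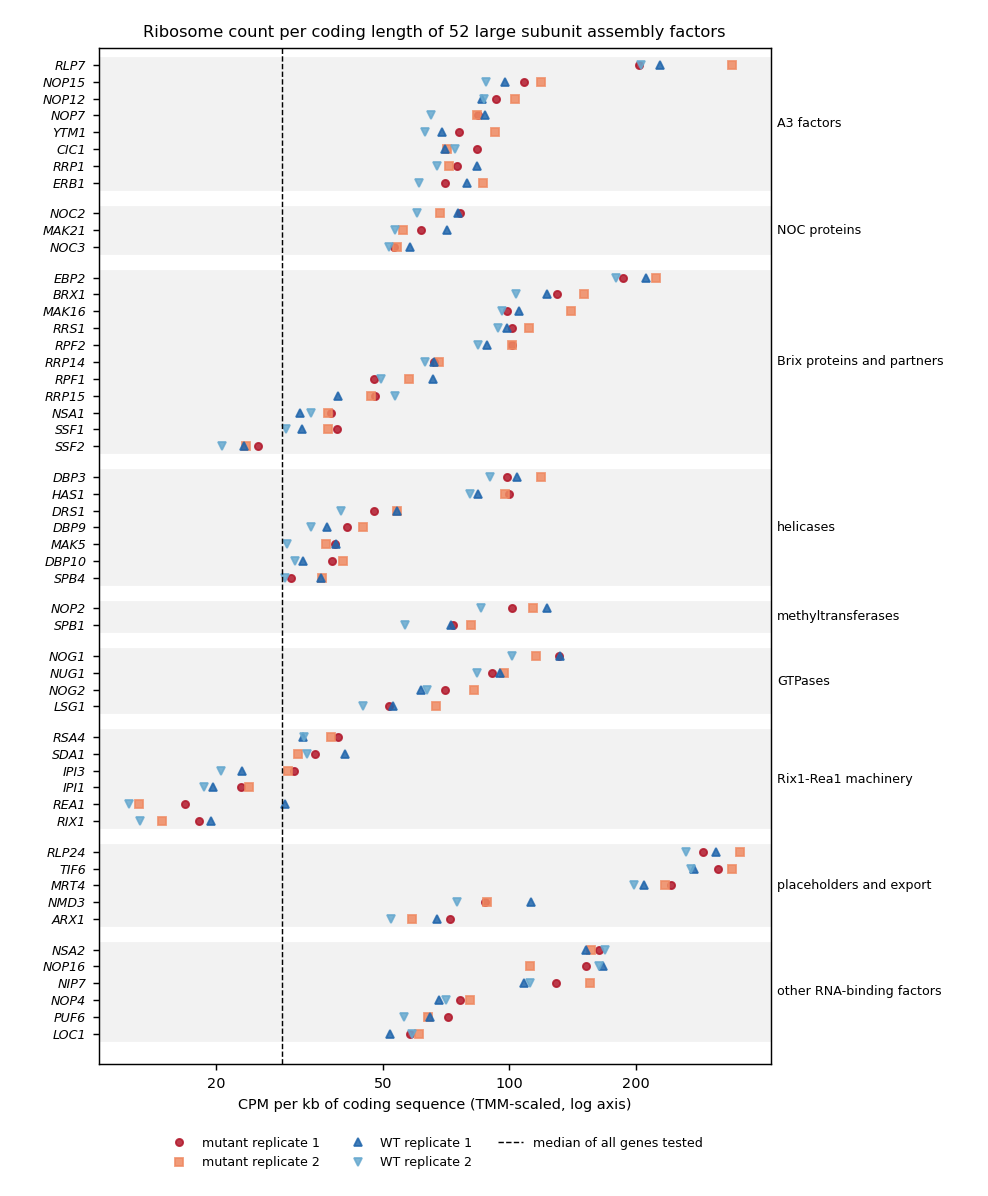
Level per length of the 52 genes in CPM per kilobase of coding length on a log axis, 1 point per library (mutant and WT, 2 each), grouped by role and ordered by the mean within a role, with the median of all genes tested as a dashed line. RLP24 and TIF6 stand at the top with means of 304 and 299.6, and RIX1 at the bottom with 16.4.

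Subunits of stable complexes had similar levels per length in some cases and not in others. In the Nop7-Erb1-Ytm1 complex, ERB1 stood at 0.83 and 1.03 of NOP7 in the mutant and 0.91 and 0.93 in WT, and YTM1 at 0.90 and 1.10 in the mutant and 0.79 and 0.97 in WT. RRS1 (YOR294W) and RPF2 (YKR081C), which together bring the 5S particle to the subunit, differed by even less, with ratios of 1.00 to 1.12. NOC2 over MAK21 was 1.24 and 1.22 in the mutant and 1.06 and 1.13 in WT, and NOC3 over MAK21 was 0.87 and 0.97 in the mutant and 0.81 and 0.96 in WT. In these pairings the subunits stood at most 1.27-fold apart, for NOP7 over YTM1 in WT replicate 1. NOC2 and NOC3 stood further apart than this in mutant replicate 1, at 76.2 and 53.2 CPM per kilobase. They were closer in WT replicate 2, at 60.3 and 51.6. The Rix1 complex was less even: IPI1 stood at 1.012 to 1.61 of RIX1 and IPI3 at 1.19 to 2.00. REA1 over RIX1 was 0.92 and 0.88 in the mutant and 1.50 and 0.94 in WT, so WT replicate 1 stood apart from the other 3. Among partners of NSA1 (YGL111W), RPF1 (YHR088W) stood at 1.26 to 2.08 of its level and MAK16 (YAL025C) at 2.62 to 3.79. EBP2 had 1.43 to 1.73 times the level of its partner BRX1 (YOL077C).

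The placeholders RLP24 and MRT4 lay well below the ribosomal proteins they stand in for, while RLP7 lay between the copies of its relative. RLP24 had 0.146 and 0.165 of the level of RPL24A in the mutant and 0.189 and 0.139 in WT. MRT4 had 0.0463 and 0.0378 of the level of RPP0 in the mutant and 0.0358 and 0.0402 in WT. RLP7 had 0.269 to 0.382 of the level of RPL7A. It stood above the less used copy RPL7B, which had 185 and 176 CPM per kilobase in the mutant and 126 and 173 in WT, in all 4 libraries. Both comparisons are uncertain because RPL7A and RPL7B share 66.4% of their 28-base words and it is not known to which copy such reads were counted. The protein of RLP24 was 33.1% identical to that of RPL24A over 142 aligned residues, that of MRT4 31.8% identical to that of RPP0, and that of RLP7 38.3% identical to that of RPL7A. SSF1 (YHR066W) and SSF2 are a close pair, with 94.0% identity over 453 residues, yet shared only 18.8% of their 28-base words at the nucleotide level. SSF2 had 0.65 and 0.64 of the level of SSF1 in the mutant and 0.73 and 0.70 in WT, and the counts of either are uncertain to the extent of the shared words. Of the 52 genes, 49 shared no 28-base word with another coding sequence.

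**Figure D3:**
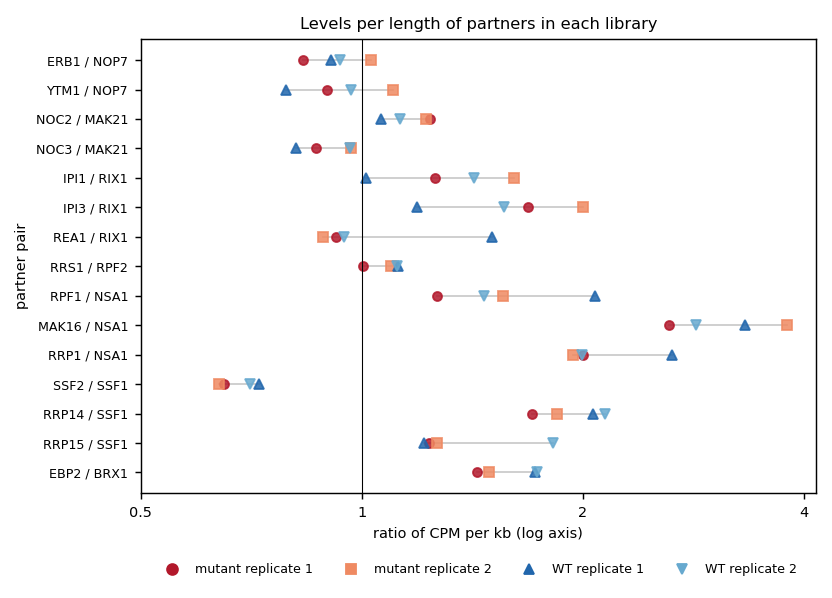
Ratio of CPM per kilobase between partners of a complex, and of SSF2 over its close relative SSF1, on a log axis. Each library is 1 point (mutant and WT, 2 each), with a line from the lowest to the highest library. ERB1 over NOP7 and RRS1 over RPF2 lie between 0.83 and 1.12, while IPI3 over RIX1 reaches 2.00 and MAK16 over NSA1 3.79.

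Between the strains, no member passed the test. In edgeR's quasi-likelihood test with Benjamini-Hochberg adjustment over 5233 genes, 0 of 52 members were called higher in the mutant, where 0% of all genes were, and 0 of 52 were called lower, where 0% were. The members' adjusted p-values lay between 0.755 and 0.996. At an unadjusted p under 0.05 in the same test there was 1 of 52 members, IPI3, which was higher in the mutant. Among all 5233 genes, 90 were higher and 195 lower at that limit. DESeq2 called 0 members, with a smallest adjusted p of 0.912, and 0 genes higher and 4 lower in all. The log2 fold changes, mutant over WT, ran from -0.47 in REA1 to 0.47 in IPI3 with standard errors of 0.15 to 0.39, and no member differed by more than 1.5-fold. For 51 of 52 members the 95% interval included 0. With 2 libraries each, their values allow no change as well as any change within these intervals.

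Most of the members leaned to the same side, by a small amount. The log2 fold change was above 0 for 43 of 52 members (82.7%), against 48.4% of all genes tested, and its median was 0.15, against -0.01 over all. Both mutant libraries stood above both WT libraries for 21 members (40.4%), against 19.1% of all genes, and below for 1 member, NOP16 (1.92%), against 17.9% of all. The 21 were TIF6, MRT4, NOP15, NOP12, YTM1, BRX1, RRS1, RPF2, NSA1, SSF1, SSF2, NIP7, NOP4, NOG2, SPB1, HAS1, DBP9, DBP10, RSA4, IPI3 and IPI1, so they came from every role but the NOC proteins. WT replicate 2 was the lowest of the 4 libraries for 38 of 52 members (73.1%), against 21.0% of all genes. With that library left out, the members' median was 0.08 and 32 of 52 were above 0, against 51.5% of all genes. Without WT replicate 1 the median was 0.27 and 49 of 52 were above 0, against 50.6% of all.

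**Figure D4:**
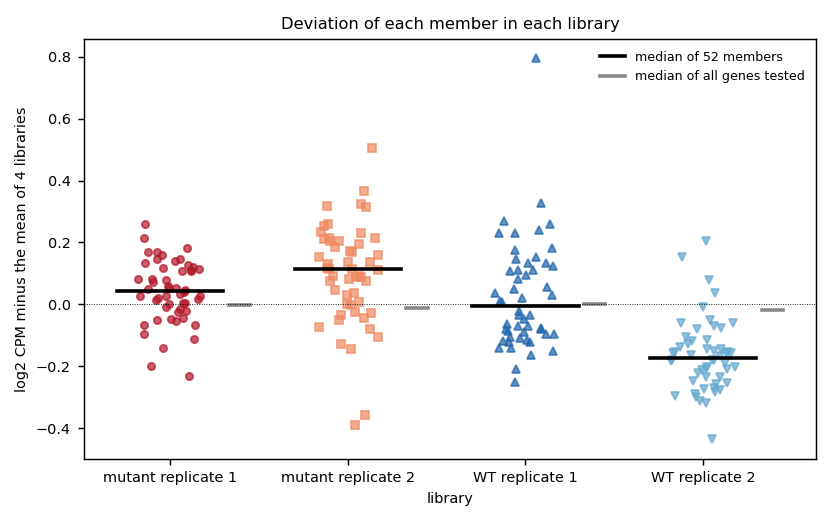
Deviation of each member from its own mean over the 4 libraries, in log2 units, 1 point per gene, with mutant replicates 1 and 2 left of WT replicates 1 and 2, black bars at the members' medians and grey bars at those of all genes tested. The members' medians were 0.04 and 0.11 in the mutant libraries and -0.01 and -0.17 in the WT libraries, the last being the lowest library for 38 members.

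Among the role groups, the GTPases and helicases had 4 of 4 and 7 of 7 members above 0, with median log2 fold changes of 0.18 and 0.16. Without WT replicate 2 these were 2 of 4 and 4 of 7, with medians of 0.07 and 0.05, and without WT replicate 1 the medians were 0.27 and 0.33. NOG2 had 103 and 120.2 CPM in the mutant and 90.02 and 93.2 CPM in WT (log2 fold change 0.28), with both mutant libraries above both WT libraries. LSG1 had 99.3 and 129 CPM in the mutant and 101 and 86.2 CPM in WT (0.28), with overlapping groups. NOG1 had 255 and 225 CPM in the mutant and 256 and 197 CPM in WT (0.08). The 3 NOC proteins had a median of -0.03 and overlapping groups throughout, and their sign turned on 1 library: the median was 0.14 with 3 of 3 above 0 without WT replicate 1, and -0.11 with 0 of 3 above 0 without WT replicate 2. NOC2 had 162 and 146 CPM in the mutant and 161 and 129 CPM in WT (0.09), and MAK21 had 189 and 172 CPM in the mutant and 219 and 165 CPM in WT (-0.08). NOC3 had 106 and 108 CPM in the mutant and 115 and 103 CPM in WT (-0.03), and its highest library was 1.12 times its lowest.

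The A3 factors had 7 of 8 members above 0 and a median of 0.17, which was 0.36 without WT replicate 1 and 0.17, with 5 of 8 above 0, without WT replicate 2. YTM1 had 105 and 128 CPM in the mutant and 95.3 and 87.1 CPM in WT (0.34), without overlap. Its partners did not separate the groups: NOP7 had 153 and 152 CPM in the mutant and 159 and 118 CPM in WT (0.14), and ERB1 had 170.1 and 209 CPM in the mutant and 192 and 147 CPM in WT (0.16). RLP7 had 197 and 328 CPM in the mutant and 221 and 199.8 CPM in WT (0.31), where 1 mutant library was high and the other was the lowest of all 4. The Brix-domain proteins and their partners had 10 of 11 above 0 and a median of 0.15. That median was 0.19, with 10 of 11 above 0, without WT replicate 1 and 0.16, with 9 of 11 above 0, without WT replicate 2. BRX1 had 114 and 132 CPM in the mutant and 107 and 90.7 CPM in WT (0.31). RPF1 was the 1 member of this group below 0, with 42.2 and 51.1 CPM in the mutant and 58.4 and 43.9 CPM in WT (-0.14) and overlapping groups. SSF1 had 52.8 and 50.3 CPM in the mutant and 43.7 and 40.1 CPM in WT (0.30), and SSF2 had 34.3 and 32.2 CPM in the mutant and 31.7 and 28.2 CPM in WT (0.15). Both SSF genes thus had the mutant libraries above the WT libraries.

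The largest and the smallest value both belonged to the Rix1-Rea1 machinery, IPI3 at 0.47 and REA1 at -0.47. IPI3, a subunit of the Rix1 complex, had 51.2 and 49.6 CPM in the mutant and 38.5 and 34.2 CPM in WT, a log2 fold change of 0.47 (95% interval 0.04 to 0.90) whose adjusted p in edgeR's quasi-likelihood test was 0.755. NIP7 (YPL211W), an RNA-binding factor, had 70.5 and 85.1 CPM in the mutant and 59.0 and 61.2 CPM in WT (0.37). In both genes the mutant libraries lay above the WT libraries. NOP16 (YER002W), a structural factor of nuclear particles, had 106 and 78.1 CPM in the mutant and 116 and 114 CPM in WT (-0.31), the only member with both mutant libraries below both WT libraries. SDA1 had 79.3 and 72.1 CPM in the mutant and 93.6 and 75.7 CPM in WT (-0.16), and NMD3 had 136 and 138 CPM in the mutant and 176 and 117 CPM in WT (-0.10). In these genes the highest library was WT replicate 1. RIX1 itself had 41.8 and 34.0 CPM in the mutant and 44.5 and 30.2 CPM in WT (0.03), with groups that overlapped.

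REA1 was set by 1 library. It had 248 and 193 CPM in the mutant and 430.2 and 183 CPM in WT, a log2 fold change of -0.47 over the 4 libraries. Without WT replicate 1 the value was 0.27, so its sign turned. Without WT replicate 2 it was -0.96, and edgeR's quasi-likelihood test, which then assumes that the lone WT library varies like the mutant libraries, gave it an adjusted p of 1.3e-06. REA1 was then the 1 member of 52 called lower, in a fit that called 14.9% of all genes lower and 4.35% higher, with 0 members higher. Without WT replicate 1, 0 members were called higher or lower, where 0.325% of all genes were called higher and 0.42% lower. REA1 is 1 of 3 members, with ARX1 and BRX1, whose protein carries a hydrophobic segment, a class that was also high in WT replicate 1. The other 2 members of the class were not highest there: ARX1 had 128 and 105 CPM in the mutant and 119.5 and 93.2 CPM in WT, and BRX1 is given above. Whether the high REA1 value belongs to that library or to the strain was not tested.

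**Figure D5:**
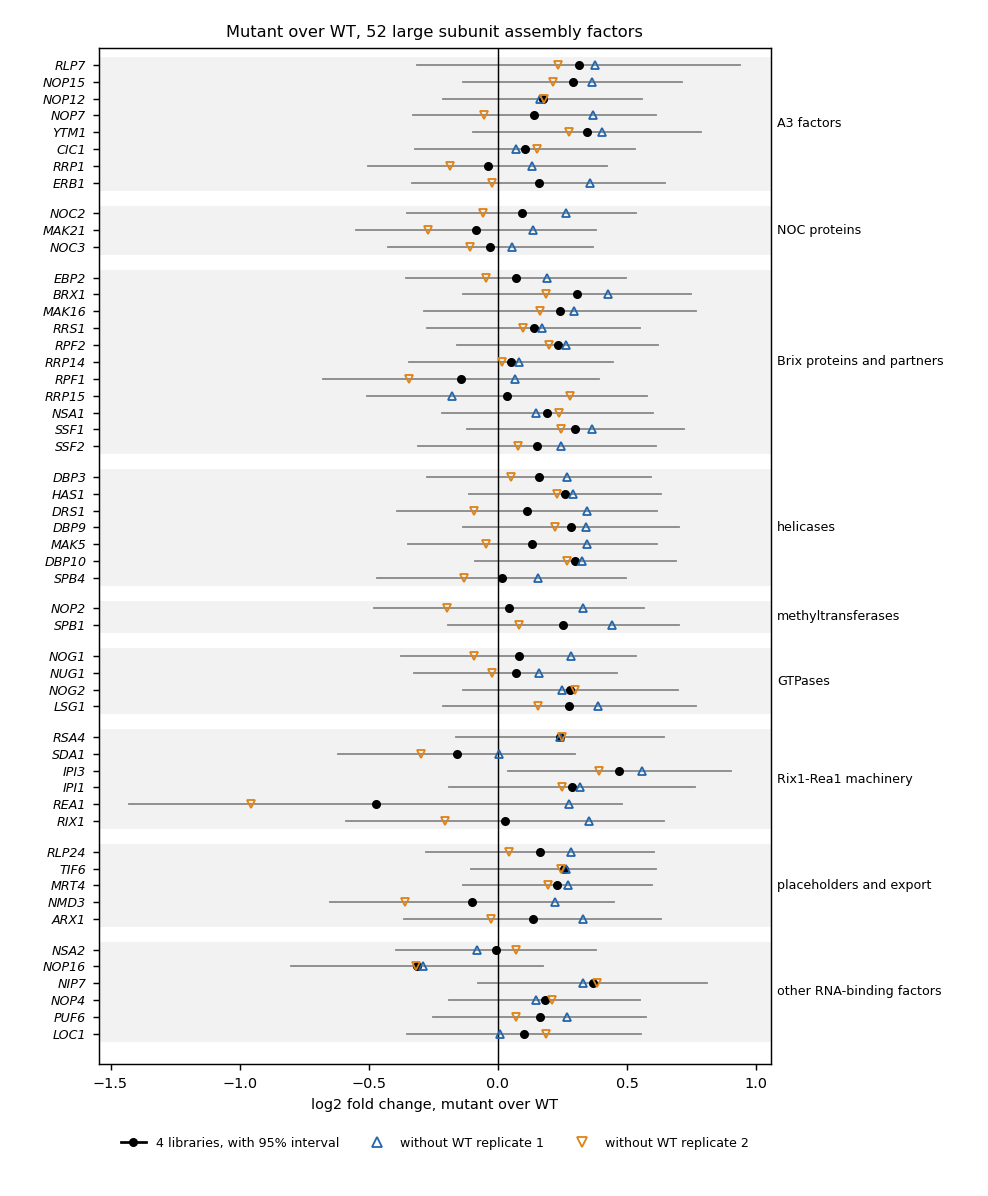
Log2 fold change, mutant over WT, of the 52 genes from edgeR's quasi-likelihood fit, as black points with 95% intervals, with open triangles for the fits that left out either WT replicate. The black points run from -0.47 in REA1 to 0.47 in IPI3, and the interval of every gene but IPI3 includes 0.

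The other genes of the pathway also had more values above 0 than below. Of 40 further large subunit assembly genes, 30 were above 0, the median was 0.14 and the range -0.16 to 0.53, with 0 called in either direction by edgeR's quasi-likelihood test and 2 at an unadjusted p under 0.05. The small subunit processome had 40 of 49 above 0 and a median of 0.18, and WT replicate 2 was the lowest library for 33 of its genes. The large subunit ribosomal proteins had 74 of 81 above 0 and a median of 0.25, with WT replicate 1 lowest for 54 of them. Without WT replicate 2 the median was 0.08 for the members and 0.38 for the ribosomal proteins, and without WT replicate 1 it was 0.27 for the members and 0.21 for the ribosomal proteins. Leaving out the second WT library thus lowered the median of the factors and raised that of the proteins of the finished subunit. These values share the same 4 libraries and are given side by side only.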

How the data were processed

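Ribosome profiling libraries of 2 mutant and 2 WT yeast samples were analysed. The authors deposited a single table of raw counts (whole numbers) for each coding sequence and library. Bowtie2, DESeq2 and sacCer3 are named in the submitters' processing notes; versions, counting tool, read lengths, strand setting, annotation and how multiply matching reads were counted were not given in the sources used here. Header names were separated by single tabs and values by doubled tabs. The first name was therefore paired with the first filled field and so on, and which library a value belongs to depends on this. Of 6600 coding sequences, 5917 matched RefSeq (R64) by systematic name; the others held at most 0.0206% of a library's counts. Row names carried no coordinates, so coordinates are those of RefSeq.

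Genes were tested with edgeR 4.0.16 (R 4.3.3; glmQLFit and glmQLFTest, two-sided, TMM, filterByExpr with minimum count 10 and minimum total 15, Benjamini-Hochberg at 0.05); all 52 members passed the filter. Standard errors were taken from the fold change and its F value. A count of 0 allows 3 counts, or 1.06 CPM in the shallowest and 0.101 CPM in the deepest library; this covers counting error only. The procedure was checked on simulated data. Alternatives were RLE size factors, TMM over genes without a hydrophobic segment, no filter, DESeq2 1.42.0, a replicate block, thinning to the smallest total, other coding lengths, longer motif forms, and leaving out each library. Fold changes are given for the 12 genes named in the rule that defines the members, SSF1 and SSF2, and the 5 highest and 5 lowest members. The RNase P gene RPP1, caught by the symbol pattern for ribosomal proteins, was left out of that list. Members, lists and rules were chosen with earlier results of these data known.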

Additional observations from a re-analysis of the deposited data

How the results depend on the processing

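No member was called under RLE size factors, TMM over genes without a hydrophobic segment, no filter, DESeq2 or thinning. DESeq2 called 4 genes lower, against 0 in edgeR. Leaving out 1 library, with the lone library of a group assumed to vary like the others, gave 0 to 228 genes called higher and 0 to 780 lower, 0 to 1 members called lower (REA1, without WT replicate 2) and a members' median of 0.080 to 0.27, with 32 to 49 above 0. OAZ1 kept its direction at 0.63 to 0.87 and passed only without WT replicate 2 (0.63, edgeR adjusted p = 0.0319). Of the 21 members named with a fold change, 12 changed sign under at least 1 alternative. Their ranges without 1 library were -0.054 to 0.37 for NOP7, -0.023 to 0.35 for ERB1, -0.27 to 0.14 for MAK21, -0.057 to 0.26 for NOC2, -0.11 to 0.053 for NOC3, -0.094 to 0.28 for NOG1, -0.21 to 0.35 for RIX1, -0.96 to 0.27 for REA1, -0.36 to 0.22 for NMD3, -0.10 to 0.65 for RLP7, -0.30 to 0.0057 for SDA1 and -0.34 to 0.065 for RPF1. RIX1 was also at -0.021 with TMM over genes without a hydrophobic segment. The cause was not tested. The longer motif forms were in 57.7% (PAC) and 53.8% (RRPE) of members. With a replicate block, 0 genes were called and the members' median was 0.16. The deviations of same-numbered libraries had a correlation of only 0.0805 over 4603 genes, so these libraries hardly varied together. Nothing but the number links them. With 2 libraries a group, no member with a log2 difference up to 0.47 passed. SSF1 was at 0.57 after thinning to the smallest total, against 0.30 with all counts.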

Other observations

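The proteins of the 52 genes had higher shares of both basic and acidic residues than proteins at large. Lysine and arginine made up a median of 16.2% of their residues, against 11.9% over all genes tested, and 46 of 52 lay above that median. Aspartate and glutamate made up a median of 15.0%, against 12.4% over all, and some members held more acidic than basic residues, such as MAK16 with 21.9% acidic and 17.0% basic. The basic share ran from 6.12% in TIF6 to 29.9% in LOC1, an RNA-binding factor. The letters DEAD, part of the ATP-binding core of DEAD-box helicases, were in 8 members (15.4%), against 1.10% of all proteins. These were DBP3, DBP10, DRS1, HAS1, MAK5 and SPB4 among the helicases, and the methyltransferases NOP2 and SPB1. Of the 7 helicases, only DBP9 lacked the letters. Because the gene list names known helicases, the higher share follows in part from the choice of genes. A nucleotide-binding Walker A pattern was in HAS1, LSG1, NOG1, NOG2, NUG1 and REA1 (11.5%), against 4.83% of all. This share too follows in part from the choice, as GTPases and the ATPase REA1 were on the list. The proteins of NOG2 and NUG1 were 33.9% identical over 345 aligned residues. These are descriptions of sequence and no test was made.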
